A study of Mus musculus with 12 samples.

Results

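Transforming growth factor beta (TGF-beta) signalling was followed through 10 genes of the 23420 listed in the count files. They were chosen by symbol: the ligands Tgfb1, Tgfb2 and Tgfb3, the receptors Tgfbr1, Tgfbr2 and Tgfbr3, the latency proteins Ltbp1 and Ltbp2, the matrix protein Tgfbi and the nuclear repressor Skil. All 10 were found. RNA had been sequenced from 12 mouse libraries, 3 in each of 4 groups along the reprogramming of embryonic fibroblasts (MEF) to induced pluripotent stem cells (iPSC). Stage1 denotes reprogramming cells at day 6, Stage2 cells after 4 further days, and iPSC established iPSCs. Per the series text, every group but MEF was sorted for Oct4-GFP, a fluorescent reporter of the pluripotency gene Pou5f1. All groups shared a mixed background of C57BL/6 and 129. The reprogramming factors, how they were delivered, the age of the embryos and the number of animals or lines are not stated in the labels used.

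TGF-beta ligands are secreted in a latent form, in which the cleaved propeptide still covers the growth factor. Latent TGF-beta binding proteins tie that complex to the extracellular matrix, and integrins, proteases or thrombospondin release it. The free ligand binds the type II receptor Tgfbr2, which phosphorylates the type I receptor Tgfbr1, with Tgfbr3 (betaglycan) as a co-receptor that presents ligand. Tgfbr1 phosphorylates Smad2 and Smad3, which enter the nucleus with Smad4. Skil (SnoN) represses Smad target genes, is degraded when the pathway is active, and is itself a target gene. In fibroblasts the pathway is known for driving matrix production and contractile actin, and its inhibition is known to favour reprogramming.

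Gene counts ranged from 8916223 to 19011944 per library, so that 3 counts, the limit that a count of 0 allows, stood for 0.181 to 0.376 CPM (reads scaled to a fixed library size, as defined for the levels). This covers counting error only. Libraries are named here by their titles. The stage written among the sample characteristics differs from the title in every library, so that the Stage1 titles carry the stage MEF, the Stage2 titles Stage 1, the iPSC titles Stage 2 and the MEF titles iPSCs. The summed level of 10 fibroblast markers was 12730 to 17544 CPM in the libraries titled MEF, 15.6 to 25.4 at Stage1, 86.2 to 127.7 at Stage2 and 65.2 to 68.5 in iPSC, where Lum was at 0 in all 3 libraries. The summed level of 8 pluripotency markers was 4.58 to 6.15 CPM in MEF, 2660.3 to 2802 at Stage1, 5280 to 5687 at Stage2 and 5909 to 7009 in iPSC. Both sums set the MEF titles apart. The pluripotency sum ran in the order of the titles without overlap. The fibroblast sum did not: it was lower in iPSC than at Stage2, but lowest at Stage1, without overlap. From Stage2 to iPSC the pluripotency sum rose mainly through Tdgf1 (2281 to 3121 CPM on average) and Dppa5a (653 to 959 CPM). Pou5f1 was also higher on average, while Nanog, Sox2, Zfp42, Esrrb and Utf1 were lower. Nanog was highest at Stage1. Levels in CPM were scaled by trimmed mean of M-values (TMM), and log2 fold changes carry their standard error (SE). No label says whether the replicates were separate animals or cultures, and the p-values cover only how far these libraries spread, which may be technical. In such bulk RNA, fewer cells of a type and less RNA per cell cannot be told apart.

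**Figure D1:**
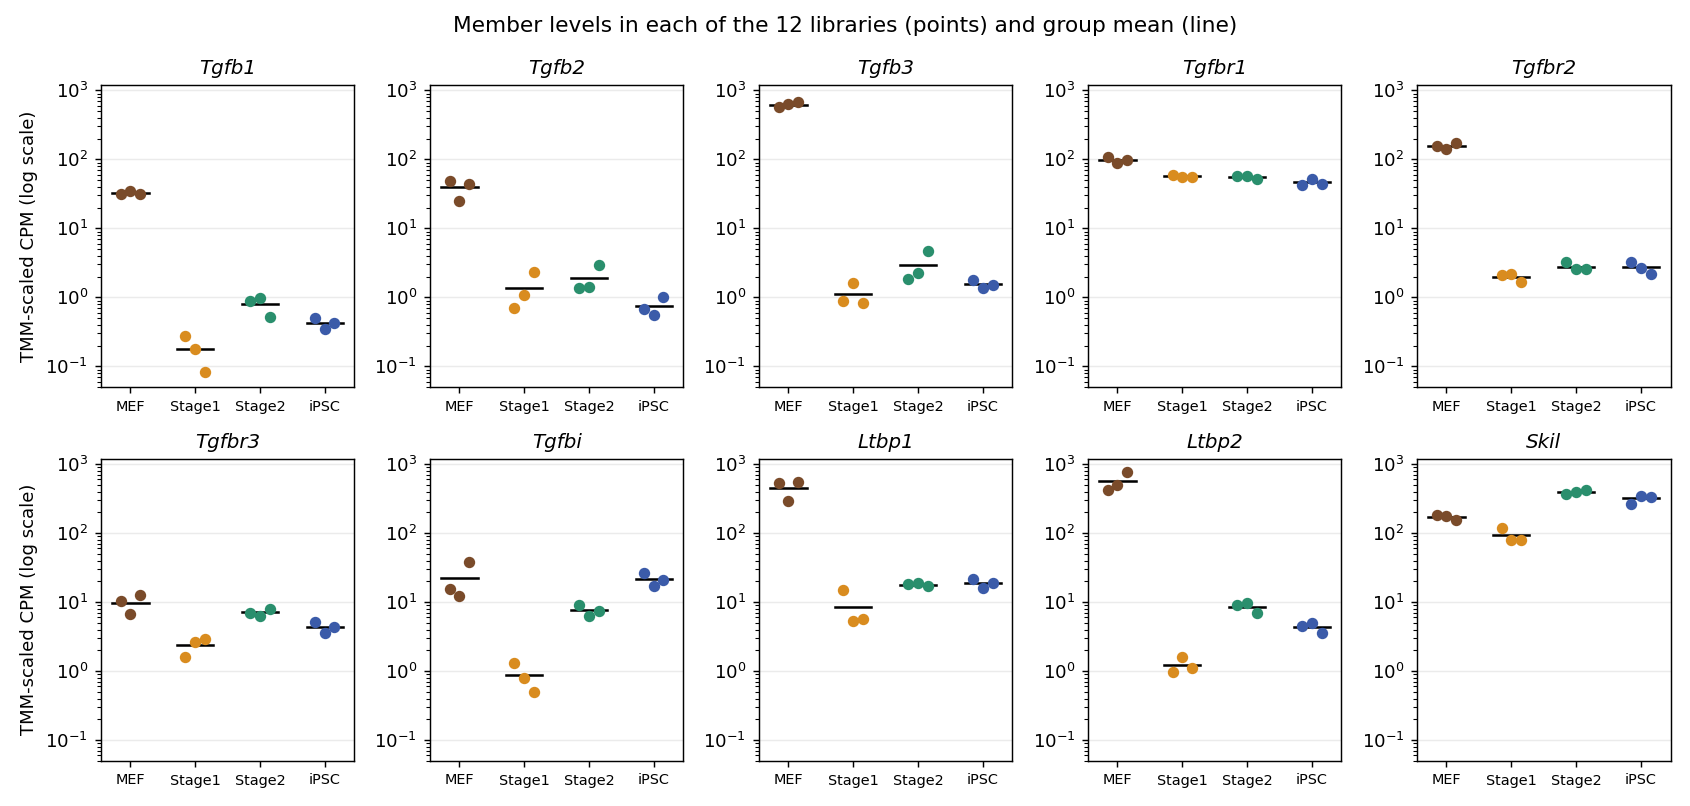
Level of each of the 10 genes in every library (points, TMM-scaled CPM on a log axis) with the mean of each group (line). Of the 10 genes 8 were called lower in iPSC than in MEF, where 35.8% of all genes tested were lower. Tgfb1, among them, passed the filter on low counts through MEF alone. Tgfbi overlapped between MEF and iPSC, and Skil was higher at Stage2 and in iPSC than in MEF.

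Stage1 against MEF asks how day 6 Oct4-GFP-positive cells differ from the starting fibroblasts. All 10 genes were lower at Stage1 by the quasi-likelihood test of edgeR, adjusted by Benjamini-Hochberg over all genes, where 36.1% of the 14770 genes tested were lower and 44.2% were higher. The count of genes higher was 0, also at an unadjusted p below 0.05 and by DESeq2. The median log2 fold change was -5.27 over the 10 genes and 0.27 over all genes tested. Fold changes ran from -9.14 in Tgfb3 to -0.79 in Tgfbr1. The fall was therefore unequal, and the type I receptor and Skil kept the largest share of their MEF level, at 57.6% and 54.3%. Tgfb1 passed the filter on low counts through MEF alone, so its fall was implied by the filter.

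Stage2 against Stage1 asks what changed over 4 further days. Of the 10 genes 7 were higher, where 20.6% of all genes were higher and 19.8% lower. These were Tgfb1, Tgfb3, Tgfbr3, Tgfbi, Ltbp1, Ltbp2 and Skil, and the other 3, Tgfb2, Tgfbr1 and Tgfbr2, were not called. The count of genes lower was 0, also at an unadjusted p below 0.05 and by DESeq2. The median log2 fold change was 1.51 over the 10 genes and 0.02 over all. Scaled by library totals alone, 70.6% of all calls were in the higher direction in place of 51.1%, with a shift of 0.20 (log2) in the median gene. Among the fibroblast markers, Lum and Dcn were lower on average at Stage2 and were not called. The fibroblast marker sum moved in the same direction as the 7 genes called higher. So did the summed level of 8 macrophage markers, at 9.01 to 15.1 CPM at Stage1 and 25.3 to 30.7 CPM at Stage2, through Cd68 (7.54 to 25.04 CPM on average), while Lyz2 was called lower (1.30 to 0.439 CPM, adjusted p = 0.00849). Their part in the result was not tested.

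iPSC against Stage2 asks what separates established iPSCs from cells late in reprogramming. Tgfbi was higher in iPSC, Tgfb3 and Ltbp2 were lower, and 7 genes were not called, where 9.21% of all genes were higher and 8.87% lower. With library totals, 34.1% of all calls were higher in place of 50.9%. The fall of Tgfb3 and Ltbp2 was lost when some libraries were left out, as given for each gene.

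iPSC against MEF asks how the end point differs from the start. Of the 10 genes 8 were lower in iPSC, where 35.8% of all genes were lower. Tgfb1, which passed the filter through MEF alone, is among the 8. The gene Skil was higher, where 44.9% were higher. Tgfbi was the remaining gene and was not called. The median log2 fold change was -5.15 over the 10 genes and 0.29 over all. This comparison and the one of Stage1 with MEF share their MEF libraries. A pair of further comparisons, added after the data were seen, served to order the levels. iPSC against Stage1 had 5 of the genes higher, where 21.3% of all genes were higher and 18.1% lower, and Stage2 against MEF had 1 higher and 8 lower, where 44.6% were higher and 36.4% lower.

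**Figure D2:**
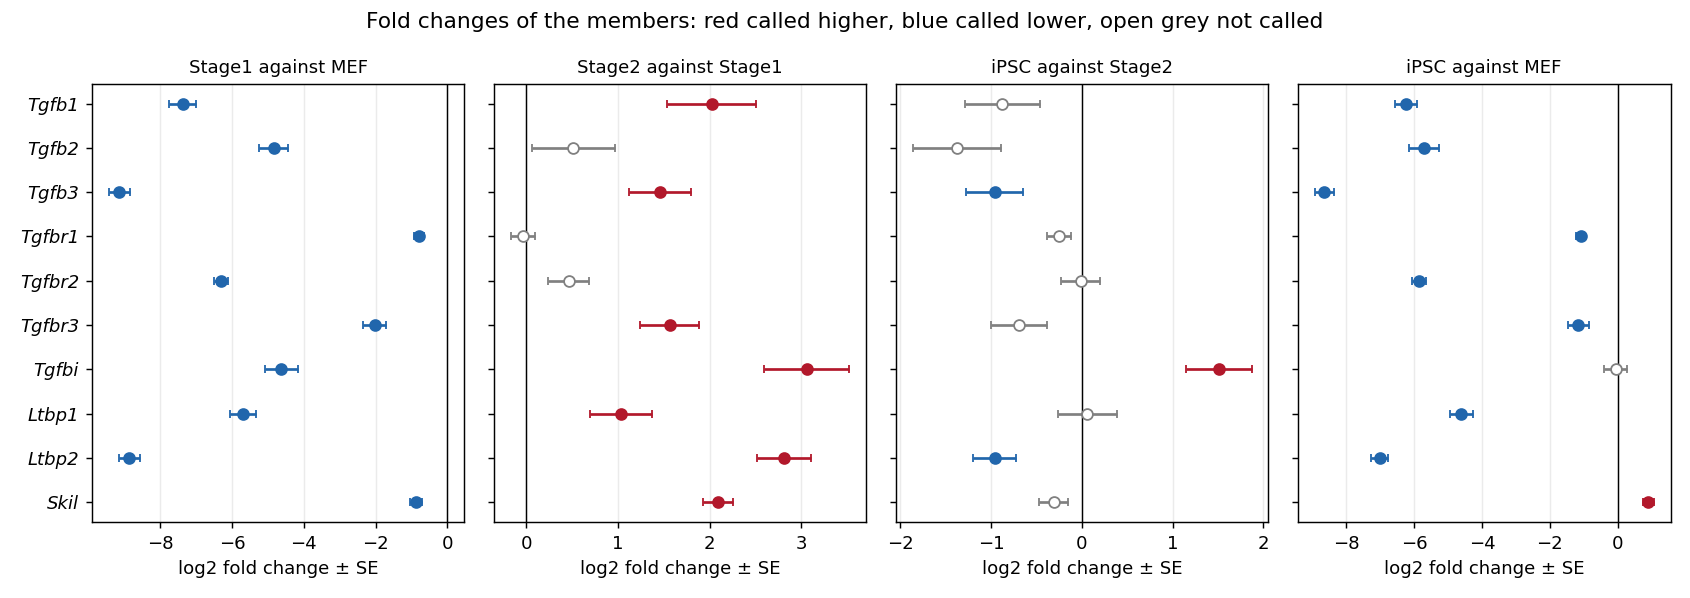
Log2 fold change (points) with SE (bars) of each gene in 4 comparisons, each panel with its own horizontal scale. Filled red points were called higher and filled blue points lower at an adjusted p below 0.05, and open grey points were not called. All 10 points lie left of 0 for Stage1 against MEF, and 7 are red for Stage2 against Stage1.

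Tgfb3 was the most abundant ligand transcript in MEF and fell furthest of the 10 genes at Stage1. Its levels were 568, 630.1 and 675 CPM in the MEF replicates, 0.899, 1.61 and 0.842 CPM at Stage1, 1.86, 2.26 and 4.72 CPM at Stage2 and 1.76, 1.39 and 1.53 CPM in iPSC. MEF stood far above all other libraries, and Stage2 replicate 3 was the highest of the others. The log2 fold change for Stage1 against MEF was -9.14 ± 0.30 (adjusted p = 2.63e-14), and that for iPSC against MEF was -8.64 ± 0.29. Tgfb3 rose from Stage1 to Stage2 by 1.46 ± 0.33 (adjusted p = 0.00219), and every Stage2 library was above every Stage1 library. It was lower in iPSC than at Stage2 by a log2 fold change of -0.96 ± 0.31 (adjusted p = 0.0408). That call was lost without Stage2 replicate 3, at -0.39 with adjusted p = 0.386. It was also lost without Stage1 replicate 1 or 3 (adjusted p = 0.0507 and 0.0552) and without iPSC replicate 1, 2 or 3 (0.0946, 0.138 and 0.105), and in a fit of these 6 libraries only (0.0543). iPSC and Stage1 did not differ by the test (adjusted p = 0.315).

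Tgfb1, the ligand of immune regulation and fibrosis, had far fewer reads. It was counted 250, 521 and 518 times in the MEF replicates, and 4, 2 and 1 times at Stage1, 9, 14 and 8 times at Stage2 and 6, 5 and 5 times in iPSC. In CPM the MEF libraries averaged 32.5 ± 2.05 (SD, n = 3), those of Stage1 0.180 ± 0.0962, those of Stage2 0.795 ± 0.246 and those of iPSC 0.425 ± 0.0784. The Stage1 levels were about as low as the depth can show. Even so the 3 Stage2 libraries lay above the 3 Stage1 libraries, with a log2 fold change of 2.02 ± 0.48 (adjusted p = 0.00309). The iPSC level lay between them and differed by the test neither from Stage2 (adjusted p = 0.152) nor from Stage1 (adjusted p = 0.125). Against MEF the log2 fold change was -7.38 ± 0.37 at Stage1 and -6.24 ± 0.33 in iPSC.

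Tgfb2, the ligand best known from heart, eye and epithelial-mesenchymal transition in development, varied between libraries of a group, with an SD of 12.6 CPM on a mean of 39.2 in MEF and 0.872 on 1.37 at Stage1. Its levels were 49.2, 25.004 and 43.4 CPM in MEF, 0.691, 1.07 and 2.36 CPM at Stage1, 1.37, 1.41 and 2.91 CPM at Stage2, and 0.672, 0.556 and 1.02 CPM in iPSC. Replicate 3 was the highest in each group but MEF, and Stage1 overlapped with Stage2 and with iPSC. The log2 fold change against MEF was -4.84 ± 0.41 at Stage1, or -5.48 without Stage1 replicate 3, and -5.71 ± 0.44 in iPSC. Stage2 against Stage1 was not called (0.52 ± 0.45, adjusted p = 0.381, and 1.14 with adjusted p = 0.0846 without Stage1 replicate 3). iPSC lay below Stage2 without overlap, at -1.38 ± 0.49, and missed the threshold (adjusted p = 0.0595). It passed without MEF replicate 2 (adjusted p = 0.0333), without Stage1 replicate 3 (0.0460), by DESeq2 (0.0204), with library totals (0.0489) and in a fit of these 6 libraries only (0.0258).

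The promoters of the falling ligands did not share the letters searched. RefSeq's table (GRCm38.p6, the build called mm10) held 300 bases around the start, 250 before and 50 after, for 7 of the 10 genes, and no entry for Tgfb3, Tgfbr3 and Skil. The motifs searched on both strands were the Smad box CAGACA, the AP-1 site TGACTCA, the cyclic AMP element TGACGTCA, the E-box CACGTG, the GC box GGGCGG, the octamer ATGCAAAT and the TATA box TATAAA. Capitals mark every match, and a match on the opposite strand reads as its reverse complement, so CCGCCC is a GC box. The Tgfb1 window (chr7:25686752-25687051, plus strand) and the Tgfb2 window (chr1:186705940-186706239, minus strand) are shown 5′ to 3′ on the strand of the gene because they belong to ligands that both fell.
Tgfb1: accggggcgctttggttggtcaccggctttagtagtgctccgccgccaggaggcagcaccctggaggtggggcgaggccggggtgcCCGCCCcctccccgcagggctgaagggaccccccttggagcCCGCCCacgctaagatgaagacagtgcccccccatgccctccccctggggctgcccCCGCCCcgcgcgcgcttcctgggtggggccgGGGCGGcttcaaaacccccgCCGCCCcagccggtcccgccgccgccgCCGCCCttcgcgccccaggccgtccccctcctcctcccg
Tgfb2: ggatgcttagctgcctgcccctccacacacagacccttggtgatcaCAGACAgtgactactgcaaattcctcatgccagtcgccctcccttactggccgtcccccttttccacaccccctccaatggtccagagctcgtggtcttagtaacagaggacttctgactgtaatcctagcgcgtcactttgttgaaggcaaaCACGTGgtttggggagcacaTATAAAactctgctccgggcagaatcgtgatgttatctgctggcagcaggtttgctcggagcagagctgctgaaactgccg
The Tgfb1 window held 6 GC boxes and was 77% G and C. The Tgfb2 window was 54.3% G and C and held a TATA box 31 bases before the start, an E-box 51 bases before it and a Smad box 204 bases before it. Of the 32851 windows in the table, 35.7% held a GC box, 13.6% a TATA box, 7.15% an E-box and 21% a Smad box. A match in letters describes the sequence only.

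Per kilobase of exons, the ligand make-up differed between MEF and the other groups. Tgfb3 made up 93.3% ± 1.22 (SD, n = 3) of the summed ligand level per kb in the MEF libraries, and 55.2% ± 16.3, 62.4% ± 6.54 and 68.5% ± 4.38 in those of Stage1, Stage2 and iPSC. The range in MEF, 91.9% to 94.3%, lay above every other library, of which the highest was at 71.4%. Tgfb2 took 3.45% ± 1.24 in MEF and 38.1% ± 19.4, 23.9% ± 1.67 and 19.04% ± 4.93 in the later groups. The summed level was 197.8 ± 15.4 CPM per kb in MEF and 0.603 ± 0.142, 1.36 ± 0.564 and 0.675 ± 0.0874 CPM per kb at Stage1, Stage2 and iPSC. Outside MEF these shares rest on 27 to 126 ligand reads a library, against 5173 to 12439 in MEF.

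**Figure D3:**
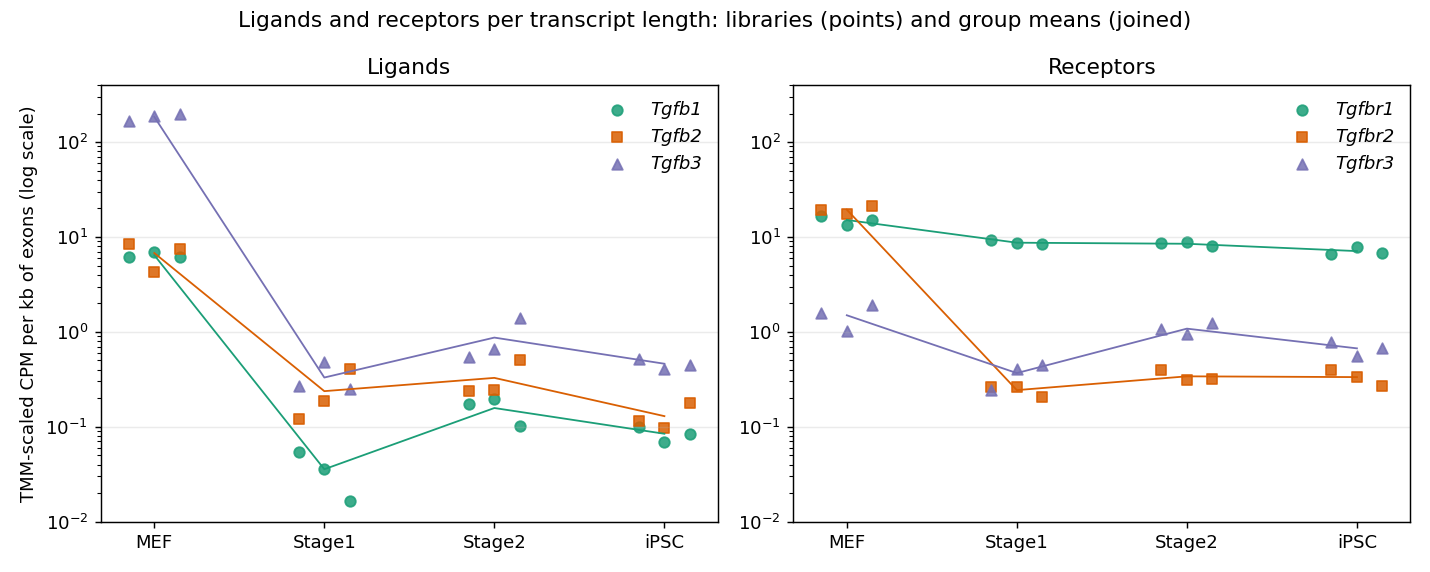
Levels of the 3 ligands (left) and 3 receptors (right) in TMM-scaled CPM per kb of exons on a log axis, with libraries as points and group means joined. Tgfb3 leads the ligands in MEF at 184.6 CPM per kb on average. Tgfbr1 stays between 7.10 and 15.1 CPM per kb on average in all 4 groups while Tgfbr2 falls from 19.4 to 0.243.

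The receptors fell unequally. Tgfbr2, the type II receptor that binds ligand, was lower than in MEF by 79.2-fold at Stage1 and 57.9-fold in iPSC, and Tgfbr1, the type I kinase, by 1.73-fold and 2.12-fold. Tgfbr2 stood at 158.6, 142.3 and 175.5 CPM in MEF, 2.14, 2.15 and 1.68 CPM at Stage1, 3.22, 2.54 and 2.59 CPM at Stage2 and 3.28, 2.71 and 2.21 CPM in iPSC. Every MEF library was above every other library, and the 3 later groups lay close together. Its log2 fold change was -6.31 ± 0.20 for Stage1 against MEF (adjusted p = 2.32e-14) and -5.86 ± 0.20 for iPSC against MEF. Stage2 against Stage1 (0.46 ± 0.22, adjusted p = 0.108) missed the threshold and passed it when scaled by library totals (0.67, adjusted p = 0.0299). iPSC against Stage2 was -0.01 ± 0.21 (adjusted p = 0.999).

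Tgfbr1 was at 109, 88.3 and 98.6 CPM in MEF, 60.0, 55.8 and 54.7 CPM at Stage1, 56.8, 57.3 and 52.1 CPM at Stage2, and 43.0, 51.7 and 44.4 CPM in iPSC. MEF did not overlap with the others, and Stage1 and Stage2 overlapped. The log2 fold change was -0.79 ± 0.13 for Stage1 against MEF (adjusted p = 2.88e-05) and -1.09 ± 0.13 for iPSC against MEF (adjusted p = 7.44e-07). Stage2 against Stage1 was -0.04 ± 0.13 (adjusted p = 0.844), and its sign turned with library totals. iPSC lay below both stages without overlap, by -0.26 ± 0.13 from Stage2 (adjusted p = 0.196, and 0.0375 in a fit of these 6 libraries only). Against Stage1 the value was -0.29 ± 0.13 (adjusted p = 0.0904, with 0.0429 without MEF replicate 2 and 0.0498 in a fit of these 6 libraries only).

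The share of the 3 receptors changed with this. Per kb, Tgfbr2 made up 53.9% ± 2.196 of the summed receptor level in MEF and 2.61% ± 0.296, 3.43% ± 0.409 and 4.13% ± 0.893 at Stage1, Stage2 and iPSC (SD, n = 3). Tgfbr1 made up 42.0% ± 2.56 in MEF and 93.4% ± 1.20, 85.6% ± 1.78 and 87.5% ± 2.61 in the later groups. The summed receptor level was 36.0 ± 3.55 CPM per kb in MEF and 9.31 ± 0.340, 9.90 ± 0.335 and 8.10 ± 0.605 CPM per kb later.

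Tgfbr3, the co-receptor betaglycan, was the least abundant of the receptors in MEF and rose at Stage2, where the others were not called. It stood at 10.3, 6.62 and 12.5 CPM in MEF, 1.59, 2.69 and 2.95 CPM at Stage1, 6.94, 6.28 and 8.02 CPM at Stage2 and 5.12, 3.61 and 4.42 CPM in iPSC. Stage1 was below all other libraries, and Stage2 overlapped with MEF. On the log2 scale the difference was -2.03 ± 0.32 for Stage1 against MEF (adjusted p = 1.55e-05), 1.57 ± 0.32 for Stage2 against Stage1 (adjusted p = 0.000941) and -1.16 ± 0.30 for iPSC against MEF (adjusted p = 0.00206). Stage2 against MEF was -0.47 ± 0.30 (adjusted p = 0.154, and 0.0438 without MEF replicate 2). iPSC against Stage2 was -0.69 ± 0.31 (adjusted p = 0.126, and 0.0158 in a fit of these 6 libraries only). iPSC was above Stage1 by 0.87 ± 0.33 (adjusted p = 0.0423). That call was lost without Stage1 replicate 1 or 2 (adjusted p = 0.168 and 0.0706), Stage2 replicate 1 or 2 (0.0527 and 0.0540) or iPSC replicate 1 or 3 (0.134 and 0.0906).

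Ltbp1 and Ltbp2, matrix proteins of the latent TGF-beta binding family, were among the abundant MEF transcripts. Ltbp1 binds latent TGF-beta covalently, whereas Ltbp2 does not and is a protein of elastic fibres and microfibrils. Ltbp2 was at 428, 499 and 769.7 CPM in MEF, 0.968, 1.61 and 1.09 CPM at Stage1, 9.18, 9.59 and 6.86 CPM at Stage2 and 4.54, 4.93 and 3.57 CPM in iPSC. No 2 groups overlapped, and the order was MEF, Stage2, iPSC and Stage1. Stage1 against MEF was -8.86 ± 0.29 on the log2 scale (adjusted p = 2.65e-14), and Stage2 against Stage1 was 2.81 ± 0.29 (adjusted p = 1.15e-06). iPSC against Stage2 was -0.96 ± 0.24 (adjusted p = 0.0114). This call was lost without Stage2 replicate 2 (adjusted p = 0.0530) or iPSC replicate 3 (0.0580). iPSC remained above Stage1 by 1.85 ± 0.31 (adjusted p = 0.000155). The exons of Ltbp2 overlap those of the antisense gene D030025P21Rik, also in the count files, over 764 bases. The strand setting of the counts was not given, so how reads over these bases were assigned is not known. Genes outside the count files overlap exons of Tgfbr3 (297 bases, same strand), Tgfb3 (257 and 163, opposite strand) and Tgfb2 (124, opposite strand).

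Ltbp1 was at 529.5, 291 and 543 CPM in MEF, 14.9, 5.28 and 5.64 CPM at Stage1, 18.1, 18.8 and 16.9 CPM at Stage2 and 21.6, 15.8 and 18.8 CPM in iPSC. Stage1 replicate 1 stood apart from the other Stage1 libraries and close to Stage2. The log2 fold change was -5.69 ± 0.37 for Stage1 against MEF (adjusted p = 1.90e-09), or -6.37 without Stage1 replicate 1. Stage2 against Stage1 was 1.03 ± 0.34 (adjusted p = 0.0242), or 1.70 with adjusted p = 0.000121 without that library. The call was lost without Stage1 replicate 2 or 3 (adjusted p = 0.0905 and 0.0907), MEF replicate 3 (0.0547) or Stage2 replicate 1 or 2 (0.0543 and 0.0623), and without a filter on low counts (0.0760). iPSC and Stage2 overlapped (0.06 ± 0.32, adjusted p = 0.916). iPSC against Stage1 was 1.09 ± 0.34 (adjusted p = 0.0183), or 1.78 without Stage1 replicate 1, and was lost without Stage1 replicate 2 or 3 (0.0677 and 0.0658) or iPSC replicate 1 (0.0573), without a filter (0.0623) and in a fit of these 6 libraries only (0.0563).

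Tgfbi, an extracellular matrix protein named for its induction by TGF-beta, was the one member not called between iPSC and MEF. It was at 15.4, 12.2 and 38.8 CPM in MEF, 1.31, 0.805 and 0.505 CPM at Stage1, 8.99, 6.28 and 7.44 CPM at Stage2 and 26.6, 16.9 and 20.9 CPM in iPSC. Levels were lowest at Stage1 and higher in each later group without overlap, and the iPSC libraries lay within the range of MEF. The log2 fold change was -4.62 ± 0.46 for Stage1 against MEF (adjusted p = 5.42e-08), 3.06 ± 0.46 for Stage2 against Stage1 (adjusted p = 6.97e-05) and 1.51 ± 0.36 for iPSC against Stage2 (adjusted p = 0.00959). iPSC against MEF was -0.06 ± 0.34 (adjusted p = 0.884). MEF replicate 3 decided that value: without it, Tgfbi was called higher in iPSC at 0.65 (adjusted p = 0.0313), and Stage1 against MEF was -3.92. Stage2 against MEF was -1.56 ± 0.36 (adjusted p = 0.000743), or -0.87 without MEF replicate 3.

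Macrophages also express Tgfbi. The summed level of 8 macrophage markers was 118.1 to 126.2 CPM in MEF, with 122.1 CPM in replicate 3, and 12.2 to 17.8 CPM in iPSC. Most of the MEF sum was Lyz2, at 81.3, 91.6 and 62.5 CPM in replicates 1, 2 and 3. Csf1r (4.51, 6.22 and 14.1 CPM) and Emr1 (5.14, 2.54 and 8.26 CPM) were highest in replicate 3, as Tgfbi was. So were Cd14 (4.89, 5.82 and 9.23 CPM) and Ptprc (4.01, 4.48 and 7.54 CPM), and by less Cd68 and Tyrobp. Aif1 was highest in replicate 2. From Stage2 to iPSC the markers did not move together: Cd68 went from 25.04 to 10.8 CPM on average and was called lower (adjusted p = 0.00927), and Lyz2 from 0.439 to 1.17 CPM and was called higher (adjusted p = 0.0347). The part of macrophage or fibroblast RNA in the level of Tgfbi was not tested. In percent of the MEF mean, the fibroblast sum was 0.144% at Stage1, 0.782% at Stage2 and 0.463% in iPSC, where Tgfbi was at 3.95%, 34.2% and 97.0%. The sum of 6 primitive endoderm markers rose in the same order as Tgfbi outside MEF, at 3.46 to 4.38, 10.7 to 11.9 and 13.4 to 17.4 CPM. Without Pdgfra, which the fibroblast list also holds, it was 1.45 to 1.94 at Stage1, 5.95 to 7.72 at Stage2 and 5.83 to 7.22 CPM in iPSC, so that Stage2 and iPSC overlapped. Its part in the result was not tested.

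The promoter windows of Tgfbi (chr13:56609336-56609635, plus strand) and Ltbp2 (chr12:84876442-84876741, minus strand) are shown because these genes both rose at Stage2 and then parted in iPSC.
Tgfbi: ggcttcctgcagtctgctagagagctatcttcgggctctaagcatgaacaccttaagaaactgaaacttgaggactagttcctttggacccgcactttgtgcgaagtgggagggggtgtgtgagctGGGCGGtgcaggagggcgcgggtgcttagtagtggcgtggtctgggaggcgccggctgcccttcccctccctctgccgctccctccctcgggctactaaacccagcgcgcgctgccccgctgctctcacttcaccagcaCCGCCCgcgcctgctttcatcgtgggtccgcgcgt
Ltbp2: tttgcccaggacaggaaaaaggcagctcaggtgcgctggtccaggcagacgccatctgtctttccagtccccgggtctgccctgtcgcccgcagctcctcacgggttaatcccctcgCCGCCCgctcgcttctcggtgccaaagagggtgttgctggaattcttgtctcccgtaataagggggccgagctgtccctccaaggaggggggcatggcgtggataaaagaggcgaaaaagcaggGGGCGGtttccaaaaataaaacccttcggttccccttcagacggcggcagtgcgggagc
Each held 2 GC boxes and none of the other letters searched. The Tgfbi window was 63.3% G and C with 22 CpG pairs, and the Ltbp2 window 61% with 20. In the remaining windows a cyclic AMP element lay 73 bases before the upstream start of Ltbp1, a motif found in 1.79% of all windows. The second start of Ltbp1 had 2 Smad boxes.

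Skil, the corepressor SnoN that holds Smad target genes down, was called higher at Stage2 and in iPSC than in MEF, also under each of the 19 alternatives run. No other member was, except Tgfbi in iPSC without MEF replicate 3. It was at 181, 177 and 154 CPM in MEF, 118.8, 78.8 and 80.5 CPM at Stage1, 371, 399.7 and 418 CPM at Stage2 and 269, 350.2 and 338 CPM in iPSC. Stage1 lay below MEF, and MEF below both Stage2 and iPSC, without overlap. Its log2 fold change was -0.88 ± 0.16 for Stage1 against MEF (adjusted p = 7.65e-05) and 2.09 ± 0.17 for Stage2 against Stage1 (adjusted p = 5.26e-08). Stage2 against MEF was 1.22 ± 0.16 (adjusted p = 1.82e-06), and iPSC against MEF was 0.90 ± 0.16 (adjusted p = 5.29e-05). iPSC lay below Stage2 without overlap by -0.31 ± 0.16 and was not called (adjusted p = 0.184, and 0.0114 in a fit of these 6 libraries only).

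Per kb of exons, Skil changed its place among the 10 genes. In MEF the order of mean levels was Tgfb3 at 184.6, Ltbp2 at 69.1, Ltbp1 at 42.5, Tgfbr2 at 19.4, Skil at 17.6 and Tgfbr1 at 15.1 CPM per kb, with the other 4 at 1.496 to 6.77. The spread of the MEF libraries was wide in Ltbp1 and Ltbp2 (SD 13.3 and 22.0), and neighbours in the order Tgfbr2, Skil and Tgfbr1, with SDs of 2.02, 1.51 and 1.58, lay close to each other. In iPSC the order was Skil at 32.9, Tgfbr1 at 7.10, Tgfbi at 5.69 and Ltbp1 at 1.75 CPM per kb, with the other 6 at 0.0844 to 0.670. Skil likewise had the highest mean at Stage2 (40.9 ± 2.47) and at Stage1 (9.56 ± 2.34), there followed by Tgfbr1 (8.70 ± 0.427), within its SD. Its lead at Stage1 came from replicate 1 (12.3 against 9.18 CPM per kb). Tgfbr1 stood above Skil in Stage1 replicate 2 (8.55 against 8.13) and replicate 3 (8.37 against 8.30).

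The rest of the pathway was read from a list of 44 genes, of which 43 were tested and Itgb6 was not. At Stage1 against MEF, 34 were lower, 6 higher and 3 not called, with a median log2 fold change of -3.30, where 36.1% of all genes were lower and 44.2% higher. Of the genes of latency and activation, all 10 tested were lower, of which Itgb8 passed the filter on low counts through MEF alone, so that its fall was implied. Among them were Thbs1, the activating thrombospondin, which fell from 20270 to 29.6 CPM, and Lrrc32 (GARP), which holds latent TGF-beta on the cell surface and fell from 282.2 to 0.339 CPM. Of the targets, all 12 were lower, of which Snai1 likewise passed through MEF alone. Examples were Acta2, the smooth muscle actin, with a log2 fold change of -11.85 ± 0.34, and Fn1, fibronectin, with -4.01 ± 0.22. The Smads and receptor adaptors were mixed: Smad3 fell by 2.75 on the log2 scale, whereas Smad2 (0.08 ± 0.13) and Smad4 (0.24 ± 0.16), named after their values were seen, were not called. Of 15 inhibitors 9 were lower and 5 higher, and 1 was not called. Pmepa1, a membrane inhibitor induced by the pathway, fell by 6.84, and Trim33, a ubiquitin ligase acting on Smad4, rose by 2.09.

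At Stage2 against Stage1, 25 of the 43 were higher, 3 lower and 15 not called, with a median log2 fold change of 1.04, where 20.6% of all genes were higher and 19.8% lower. Of 10 genes of latency and activation 8 were higher, and of 12 targets 9. The target Acta2 rose from 3.41 to 46.0 CPM (3.78 ± 0.27) and Thbs1 from 29.6 to 227 CPM. Both stayed far below MEF. The summed level of 6 smooth muscle markers was 16.0 to 18.7 CPM in the Stage1 libraries and 49.2 to 54.6 CPM in those of Stage2, and the fibroblast sum was 15.6 to 25.4 and 86.2 to 127.7 CPM. Col1a1 (1.46 to 20.8 CPM on average) is on both the fibroblast and the target list. Of the fibroblast list Lum and Dcn were lower on average at Stage2 and were not called. The part of either sum in the levels of the targets was not tested. Of 15 inhibitors 5 were higher, 2 lower and 8 not called, with a median of 0.24. Among those higher were Smad7, which blocks the type I receptor, at 1.80 ± 0.19, Smad6, its relative in BMP signalling, at 2.50 ± 0.37, and Bambi, a decoy receptor, at 1.73 ± 0.23 on the log2 scale. Acvrl1, a type I receptor of endothelium, rose by 3.38 ± 0.43 to 3.93 CPM. Cd109, a co-receptor that dampens the pathway, was among those lower and fell by 3.40 on the log2 scale. The sum of 6 endothelial markers was 9.76 to 17.5 CPM in MEF, with Tie1 at 0, then 46.5 to 58.4 at Stage1, 78.6 to 105.1 at Stage2 and 80.1 to 109.1 in iPSC. Most of it was Pecam1, at 0.187, 41.0, 83.5 and 79.1 CPM on average, while Emcn was at 10.06, 0.137, 0.277 and 0.170 CPM. From Stage1 to Stage2, Pecam1, Kdr and Emcn rose on average. Tek (10.7 to 8.24 CPM), Tie1 (0.726 to 0.515 CPM) and Cdh5 (0.388 to 0.362 CPM) fell. Several of these rest on few reads over the 3 libraries of a group. At Stage1 and Stage2, Emcn had 5 and 12, Cdh5 14 and 16, Tie1 26 and 19, and Kdr 35 and 60. The part of this sum in the rise of Acvrl1 was not tested.

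At iPSC against Stage2, 14 of the 43 were lower, 2 higher and 27 not called, with a median of -0.27, where 8.87% of all genes were lower and 9.21% higher. Of 12 targets 9 were lower, among them Acta2 at -1.42 ± 0.23 and Fn1 at -1.15 ± 0.19. The fibroblast marker sum fell in the same direction. Pdgfra (4.38 to 8.69 CPM on average), Pdgfrb (5.79 to 9.51 CPM) and Twist1 (2.97 to 4.70 CPM) rose, and the other markers fell. Col1a1 is on both the fibroblast and the target list. The sum of 6 smooth muscle markers was 49.2 to 54.6 CPM at Stage2 and 48.6 to 63.8 CPM in iPSC, so these groups overlapped. Of that list Des rose (16.6 to 33.7 CPM on average), and its other markers fell on average. The part of the fibroblast or smooth muscle sum in the levels of the targets was not tested. The number of pathway genes lower was 9 without iPSC replicate 1, 9 without iPSC replicate 2 and 7 without iPSC replicate 3. The 2 genes higher were Pmepa1 (0.58 ± 0.19) and Cd109 (1.02 ± 0.25), and that number was 0 without Stage2 replicate 1. It was 1 without MEF replicate 1, Stage1 replicate 2, Stage2 replicate 2 or 3, or iPSC replicate 1 or 2. At iPSC against MEF, 32 were lower, 4 higher and 7 not called, with a median of -3.01, where 35.8% of all genes were lower and 44.9% higher. Of 15 inhibitors 4 were higher (Tgif1, Tgif2, Nedd4l and Trim33), 7 were lower, among them Pmepa1, Bambi and Cd109, and 4 were not called. Itgb8 and Snai1 are counted among the 32.

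**Figure D4:**
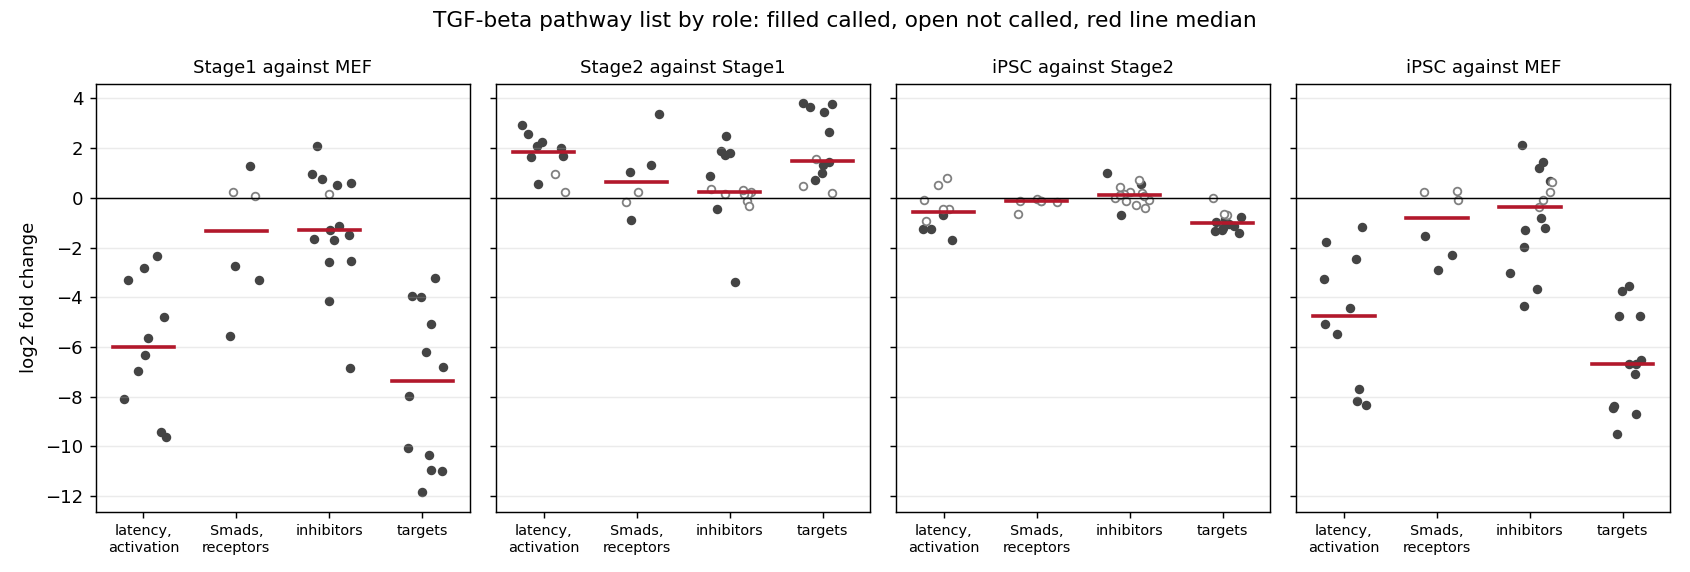
Log2 fold change of each tested gene of the pathway list, by role, in 4 comparisons, with filled points called, open points not called and a red line at the median. At Stage1 against MEF the median is -5.99 for latency and activation and -7.38 for targets, and at Stage2 against Stage1 it is 1.85 and 1.501.

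Genes whose levels ran most like those of 4 members were ranked by Pearson's r of log2 CPM over the 12 libraries. The libraries share their groups, so that for the 3 ligands the gap between MEF and the rest sets most of these values. Skil has no such gap, as its MEF level lay between Stage1 and the later groups. All values are given as a description. Nearest to Tgfb3 were Adamts12 (r = 0.998), Nrp1 (0.998) and Nedd9 (0.996), and nearest to Tgfb1 were Rhob (0.997), Il10rb (0.995) and Mical2 (0.994). Nearest to Tgfb2 were Pdzrn3 (0.986), Sytl5 (0.984) and Tpbg (0.983). Skil ran most like Dgkh (0.979), Ccdc136 (0.973) and Ndrg1 (0.968). None of the 4 members shared a nearest gene with another, so these sets do not set Skil apart. Between the members themselves, r was 0.93 (Tgfb1 and Tgfb2), 0.983 (Tgfb1 and Tgfb3) and 0.965 (Tgfb2 and Tgfb3). For Skil it was -0.0116 with Tgfb1, -0.201 with Tgfb2 and -0.109 with Tgfb3.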

How the data were processed

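RNA of 12 libraries was extracted with a miRNeasy kit and sequenced on Illumina libraries, per the labels' protocols. The deposited files hold raw counts of reads per gene symbol, made by the authors. Per the submitters' processing notes these rest on mm10, TopHat2 2.0.9, Bowtie2 2.2.6, SAMtools 0.1.19 and HTSeq 0.5.4p3, with DESeq2 1.12.4 also named. Annotation and strand setting: not given in the sources used here. HTSeq's summary lines, 9.53% to 53.9% of reads, stayed out of library sizes and tests. The no-feature line alone held 9.21% ± 0.304 of all reads in MEF and 42.8% ± 4.11, 49.9% ± 3.16 and 38.8% ± 4.87 at Stage1, Stage2 and iPSC (SD, n = 3).

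Groups follow the titles. All 12 libraries entered 1 robust quasi-likelihood model with the group as its factor (R 4.3.3, edgeR 4.0.16, limma 3.58.1, statmod 1.5.0), after filterByExpr (minimum count 10; 14770 genes kept) and TMM scaling. A gene was called where its p, adjusted by Benjamini-Hochberg over all genes tested, was below 0.05. The SE is the absolute log2 fold change over the root of F. Lengths are exon unions of GENCODE vM21 on GRCm38, so levels per kb assume that annotation. Correlations used log2 CPM with a prior count of 2. The fit was tested on simulated data. The members and lists were chosen with earlier results of these data known. The rule for named genes takes all members, pathway genes called at least 2-fold, and the 3 most alike genes for 4 members, without predicted or small RNA symbols. Values of 1 gene of the pathway list are not reported here. Smad2, Smad4 and genes called by less were named after their values were seen. Alternatives were RLE scaling, library totals, no filter, 1 CPM in 3 libraries, DESeq2 1.42.0, fits of the compared groups, a replicate block and leaving out each library.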

Additional observations from a re-analysis of the deposited data

How the results depend on the processing

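For Stage1 against MEF all counts of members, pathway genes and all genes kept within 1.5 times under all alternatives, with 10 members lower throughout. With library totals in place of TMM, the median of all genes moved by 0.18 for Stage1 against MEF, 0.20 for Stage2 against Stage1, 0.28 for iPSC against MEF and -0.10 for iPSC against Stage2. The pathway genes lower at Stage2 than Stage1 were then 1 in place of 3, the pathway genes higher in iPSC than Stage2 1 in place of 2, and those higher in iPSC than MEF 7 in place of 4. Of all genes, 1678 in place of 2921 were lower at Stage2 than Stage1, and 882 in place of 1360 higher in iPSC than Stage2. Over the 40 fold changes of members in these comparisons, 37 kept their sign under RLE scaling and library totals. The others, which were not called, were Tgfbr1 for Stage2 against Stage1, Ltbp1 for iPSC against Stage2 and Tgfbi for iPSC against MEF.

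iPSC against Stage2 moved most. In a fit of these 6 libraries only, 5 members were lower in place of 2, 4 pathway genes were higher in place of 2, and 2307 genes were higher and 2647 lower in place of 1360 and 1310, and the cause was not tested. RLE scaling gave 1 pathway gene higher. Leaving out each library in turn gave 0 to 3 members lower, 0 to 3 pathway genes higher, 7 to 15 pathway genes lower, 665 to 1984 genes higher and 568 to 1910 lower. For iPSC against MEF, 1 to 2 members were higher, the second being Tgfbi without MEF replicate 3, where 6587 to 6998 of all genes were higher. For Stage2 against Stage1, leaving out a library gave 6 to 7 members higher, where 2367 to 3563 of all genes were higher.

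Replicate numbers recur in the titles, but nothing says that they mark a shared source. The deviations of same-numbered libraries from their group means correlated between -0.07 and 0.20, with a median of 0.0306. Those of different-numbered libraries correlated between -0.139 and 0.083, with a median of -0.0131. Of the 12 libraries 8 correlated best with their own number, so a shared source was neither stated nor excluded. The fit with a replicate block gave 10 members lower for Stage1 against MEF, 7 higher for Stage2 against Stage1, 1 higher and 2 lower for iPSC against Stage2, and 1 higher and 8 lower for iPSC against MEF. In each of these comparisons the numbers of all genes higher and lower under the block stayed within 1.5 times those of the main fit. Of pathway genes 1 in place of 2 was higher in iPSC than Stage2. For iPSC against Stage2 the block gave Tgfb3 an adjusted p of 0.0501 and Tgfb2 one of 0.0349. Over the fold changes of single members in 6 comparisons, 403 values under other settings and 693 with a library left out stayed on their side of the threshold. Under other settings 9 gained and 5 lost the call, and with a library left out 5 gained and 22 lost it. No called value changed direction. Depth limits Tgfb1 at Stage1 most, with 7 reads in 3 libraries.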
